A study of Mus musculus with 2 samples.

Results

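The 10 genes described here build the contractile apparatus of smooth muscle: Acta2, Myh11, Tagln, Cnn1, Smtn, Myl9, Des, Lmod1, Myocd and Actg2. They were taken by symbol from the 32285 genes listed in 2 single-cell RNA sequencing libraries of newborn mouse kidney, and each symbol matched 1 gene. Both libraries are of kidney at birth and carry the same genotype label, Rbpj c/+ ; Foxd1cre/+, read here as 1 conditional and 1 wild-type allele of Rbpj with a Cre recombinase expressed from Foxd1, a gene of the stromal progenitors of the kidney. Every cell compared below therefore comes from this genotype, no library without the Cre or the conditional allele was analysed here, and an effect of the genotype could not be tested. The question answered is how the 10 genes are distributed over renin, smooth muscle, pericyte and stromal cells of this kidney, with each cell class gated on markers that include none of the 10.

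In smooth muscle, a motor built from a muscle-specific myosin heavy chain and a regulatory light chain pulls on filaments of muscle actin, and phosphorylation of the light chain switches it on. Calponin, transgelin and smoothelin bind those filaments, leiomodin promotes their growth, desmin forms the intermediate filaments that anchor them, and myocardin is the coactivator of serum response factor that switches many of these genes on together. In the kidney such cells wrap the arteries and arterioles. Renin cells arise in arteriole walls from the Foxd1 lineage and can share the smooth muscle programme, whereas pericytes, mesangial cells and stroma belong to the same lineage with less of it.

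Replicates 1 and 2 held 5529 and 4206 cells with 3000 or more UMIs (unique molecular identifiers, 1 per captured mRNA molecule), 500 or more genes and no more than 20% of UMIs from mitochondria. Median depth was 15016 and 20007.5 UMIs per cell, and 6 cell barcodes occurred in both libraries. Marker gates held 25 and 30 smooth muscle cells, 24 and 39 renin cells, 104 and 81 pericytes and 779 and 628 stromal cells. A further 24 and 27 cells had smooth muscle markers at 4 to under 8 per 10000 UMIs and were left out of all 4 gates. They counted as smooth muscle where that gate was lowered to 4. The markers given here set the gates, apart from Akr1b7, so their levels describe the gates and are no separate support. Ren1 stood at 68625 and 27410 CPM (UMIs of the gene per 1000000 UMIs) in renin cells and at 3.21 CPM or less in stromal cells. Akr1b7, a renin cell marker that set no gate, stood at 1192.5 and 1282 CPM in renin cells. It was at 192 and 151 CPM in smooth muscle cells, 235 and 54.0 CPM in pericytes and 0.275 CPM or less in stromal cells. The 8 pericyte markers together were higher in smooth muscle cells (2919 and 3005 CPM) than in the pericyte gate (2277 and 2255 CPM). Kcnj8 and Abcc9 were highest in the pericyte gate, yet Vtn, a pericyte marker of other organs, had 0 counts there, Rgs5 was higher in smooth muscle cells (1438 and 1758 CPM against 465 and 579 CPM), and the 12 stromal markers summed to 3364 and 5683 CPM in pericytes against 7441 and 7510 CPM in stromal cells. An estimate of free RNA compared the haemoglobin genes Hba-a1, Hba-a2, Hbb-bs and Hbb-bt in cells with those in empty barcodes. It gave 7.93% to 10.7% of the UMIs of these 4 gates in replicate 1 and 0.593% to 0.714% in replicate 2. Its part in differences between the libraries was not tested, nor whether it holds for other genes. In replicate 1 it gave 4.42% for proximal tubule. Acta2 there stood at 2.36 CPM, less than that share of the 328 CPM in empty barcodes, so subtraction exceeded the gene's whole count.

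Serum response factor binds a short A and T rich element called the CArG box. The 250 bases upstream of each start site were searched for it, since most of the 10 genes were high and low in much the same cells. Smtn and Des departed most from that pattern. RefSeq promoter sequences (GRCm38.p6) were at hand for 6 of the 10 genes: Acta2, Cnn1, Smtn, Myl9, Des and Lmod1. The start sites are those of RefSeq, while the gene limits given further below come from another gene annotation. Both Acta2 boxes lie inside those limits of Acta2. Acta2, Myl9 and Lmod1 each held 2 boxes with at most 1 of 10 positions departing from the consensus, and 1 box of Myl9 matched at every position. The element reads the same on both strands, so a single search covers both, and no other motif was searched. The 6 boxes are shown 5′ to 3′ on the gene's strand, with the box in capitals and 10 bases on each side.
Acta2 box 1, chr19:34255438-34255467, minus strand: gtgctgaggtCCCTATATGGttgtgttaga
Acta2 box 2, chr19:34255388-34255417, minus strand: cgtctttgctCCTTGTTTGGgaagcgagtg
Myl9 box 1, chr2:156775293-156775322, plus strand, matching at every position: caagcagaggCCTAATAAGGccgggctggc
Myl9 box 2, chr2:156775355-156775384, plus strand: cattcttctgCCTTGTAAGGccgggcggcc
Lmod1 box 1, chr1:135324614-135324643, plus strand: gcccccttgtCTTTAAAAGGctaaactgct
Lmod1 box 2, chr1:135324639-135324668, plus strand: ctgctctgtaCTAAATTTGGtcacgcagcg

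Of all 27025 genes with a promoter sequence, 21.1% held a box with at most 1 departure and 1.62% an exact box, so a box by itself sets no gene apart. A match is a string of letters, not a binding site shown in these cells. Cnn1, Smtn and Des held no such string in the window searched, and elements further away were not searched.

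Counts were summed per library and gate and are given as CPM. Each UMI stands for 1 molecule captured at its 3′ end, so levels of different genes can be set side by side without a correction for length, apart from differences in capture. Acta2, smooth muscle alpha actin (chromosome 19, 34241090 to 34255590, minus strand, in GRCm38), was the most abundant of the 10 in smooth muscle cells, with 7681 and 10233 CPM in replicates 1 and 2 (8957 ± 1805, SD, n = 2). Tagln, Myl9 and Myh11 followed at 4207 ± 171, 3584 ± 1041 and 2601 ± 703 CPM. The values of Myl9 overlapped those of Tagln and of Myh11 across libraries. Within each library Myh11 was the lowest of these 3, whereas Tagln and Myl9 changed order, so the order of Tagln and Myl9 is not settled. A lower tier held Actg2 (293 ± 99.2 CPM), Lmod1 (270 ± 49.5), Myocd (259 ± 13.4), Cnn1 (236 ± 17.3), Des (154 ± 9.30) and Smtn (108 ± 21.7), and the values of Actg2 overlapped those of Lmod1, Myocd and Cnn1. No gene lay between 293 and 2601 CPM. The most abundant 4 are structural parts of the filament and its motor, and Myocd, the transcriptional coactivator, reached a level like that of Lmod1.

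**Figure D1:**
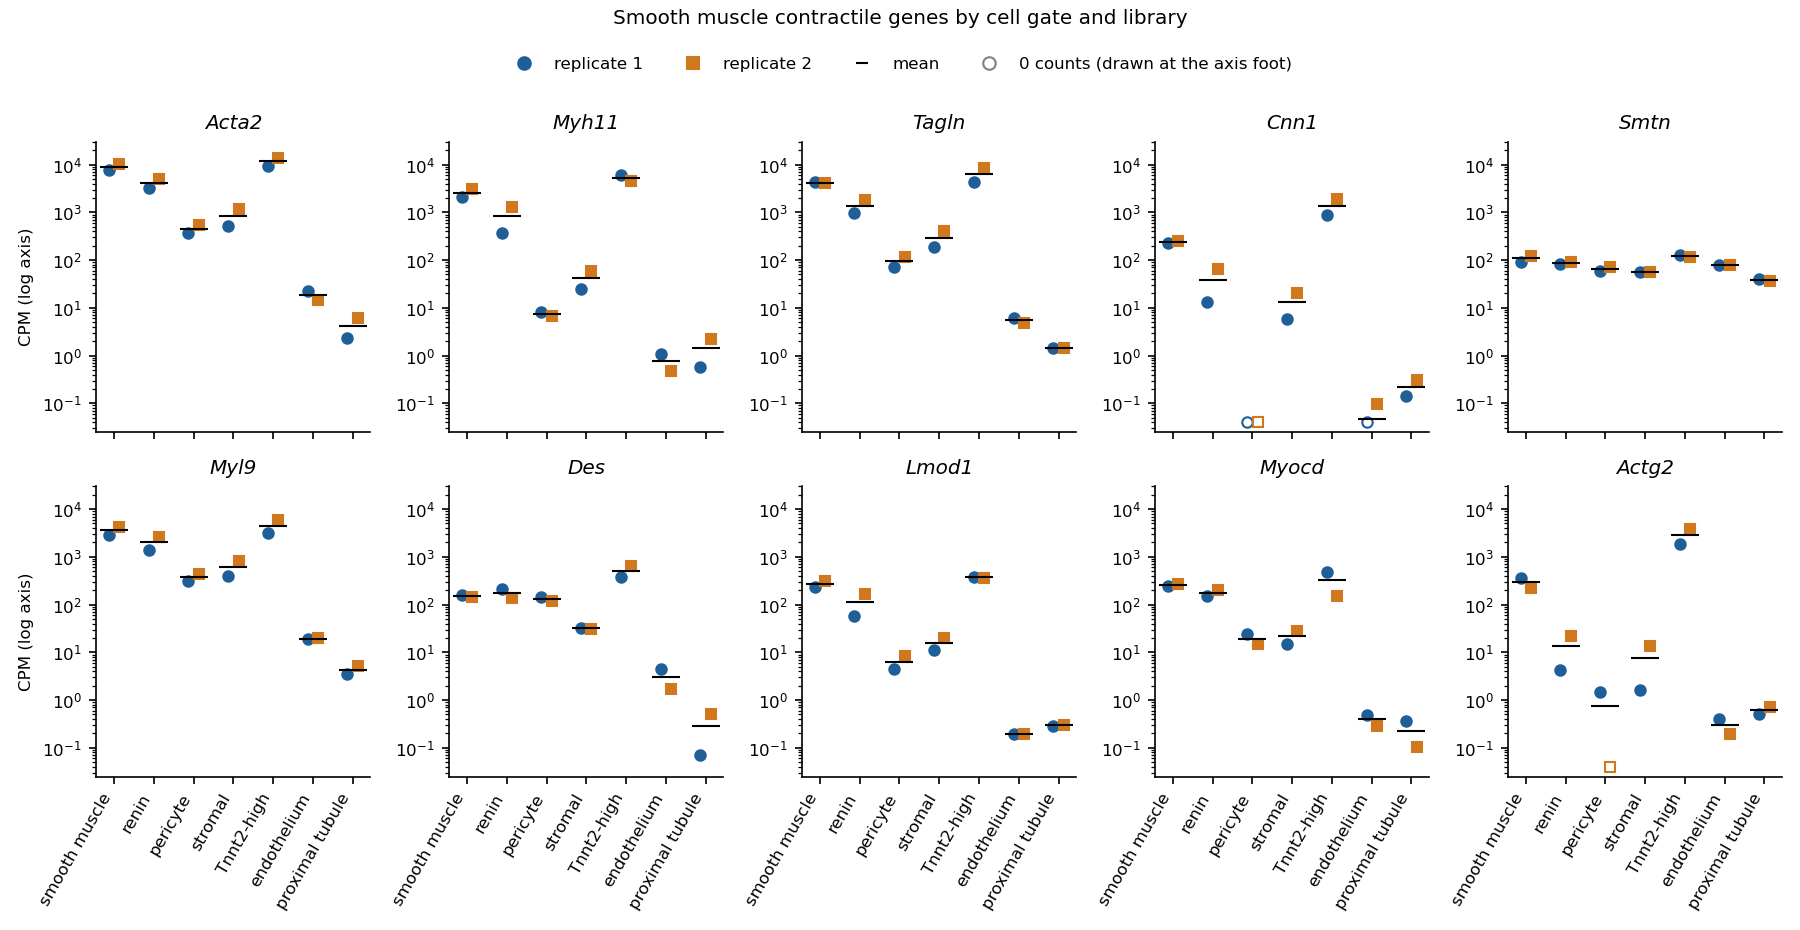
Level of each of the 10 genes in CPM (UMIs of the gene per 1000000 UMIs, log axis) in 7 cell gates; circles are replicate 1, squares replicate 2, bars the mean, and open symbols stand for 0 counts. Within each library, smooth muscle cells lie above renin cells, and renin cells above pericytes and stromal cells, in 9 of the 10 panels; Des is the exception, and Smtn spans the narrowest range of the 4 gates.

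Smooth muscle cells were compared first with stromal cells, their most numerous relatives. All 10 genes were higher in smooth muscle cells, in both libraries, against 13.8% of all 17213 tested genes called in either direction and 6.68% called higher in smooth muscle, with 7.15% higher in stromal cells. The median fitted log2 fold change, called log2 ratio from here on, was 3.75 over the 10 genes and -0.25 over all tested genes. Gates were compared by edgeR's quasi-likelihood F test on the summed counts, with library as a block and Benjamini-Hochberg adjusted p under 0.05 as the threshold. The p-values rest on the gate-by-library spread left after the block, estimated over 24 sums of 12 gates that include other lineages (11 residual degrees of freedom). Nothing in the labels says that the libraries are of separate animals, so p-values do not measure the spread between animals.

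The first group is the motor and its actins. Myh11, the smooth muscle myosin heavy chain (chromosome 16, 14194535 to 14291372, minus strand), counted 2104 and 3098 CPM in smooth muscle and 24.2 and 60.1 CPM in stromal cells. Its log2 ratio was 6.02 (SE 0.36, edgeR adjusted p 2.68e-10). Acta2 stood at 508 and 1177 CPM in stromal cells, 3.49 lower on the log2 scale than in smooth muscle (SE 0.29, edgeR adjusted p 1.66e-08). Myl9, the regulatory light chain (chromosome 2, 156775420 to 156781658, plus strand), went from 393 and 816 CPM in stroma to 2847 and 4320 CPM, a log2 ratio of 2.61 (SE 0.23, edgeR adjusted p 2.83e-08). Actg2, the gamma actin of visceral smooth muscle (chromosome 6, 83512905 to 83536265, minus strand), counted 363 and 223 CPM against 1.59 and 13.7 CPM, with a log2 ratio of 5.41 (SE 0.66, edgeR adjusted p 6.68e-06) that depended on the library: 7.83 in replicate 1 alone and 4.02 in replicate 2 alone. In replicate 1, 55 of the 102 Actg2 UMIs of smooth muscle were in 1 cell, and the level without it was 175 CPM.

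Among the proteins that bind the filament, Tagln (transgelin; chromosome 9, 45929619 to 45936058, minus strand) was at 4328 and 4086 CPM in smooth muscle cells and 186 and 397 CPM in stromal cells, a log2 ratio of 3.92 (SE 0.39, edgeR adjusted p 1.93e-07; 4.54 and 3.36 in replicates 1 and 2 alone). Cnn1 (calponin 1; chromosome 9, 22099216 to 22109630, plus strand) stood at 224 and 249 CPM against 5.73 and 20.1 CPM, with a log2 ratio of 4.35 (SE 0.40, edgeR adjusted p 3.82e-07; 5.29 and 3.63 in the single libraries). Lmod1 (leiomodin 1; chromosome 1, 135324807 to 135368065, plus strand) counted 235 and 305 CPM against 11.5 and 20.1 CPM and was higher by 4.10 (SE 0.29, edgeR adjusted p 2.14e-09). The 2 groups of values did not overlap for any of these 3 genes. Smtn (smoothelin; chromosome 11, 3517523 to 3540612, minus strand) differed least, at 92.5 and 123 CPM against 55.2 and 56.2 CPM (log2 ratio 0.97, SE 0.18, edgeR adjusted p 0.000472). Smtn makes vascular, visceral and other transcripts from 1 gene, and 3′ counts do not tell them apart.

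Des (desmin; chromosome 1, 75360329 to 75368579, plus strand) had 160.2 and 147 CPM in smooth muscle and 33.02 and 30.8 CPM in stromal cells, higher by 2.25 on the log2 scale (SE 0.34, edgeR adjusted p 5.15e-05). In replicate 2, 27 of the 68 Des UMIs of smooth muscle were in 1 cell, and the level without it was 94.3 CPM. Myocd (myocardin; chromosome 11, 65176561 to 65269989, minus strand) counted 249 and 268 CPM against 15.2 and 28.02 CPM, with a log2 ratio of 3.58 (SE 0.31, edgeR adjusted p 5.99e-08). Of the 10 calls, those of Acta2 and Smtn did not hold under every alternative: Acta2 missed the threshold once counts were lowered by an estimate of free RNA, although its log2 ratio was then 3.69 (edgeR adjusted p 0.0558), and Smtn did when the smooth muscle gate was lowered to 4 marker UMIs per 10000 (0.101).

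**Figure D2:**
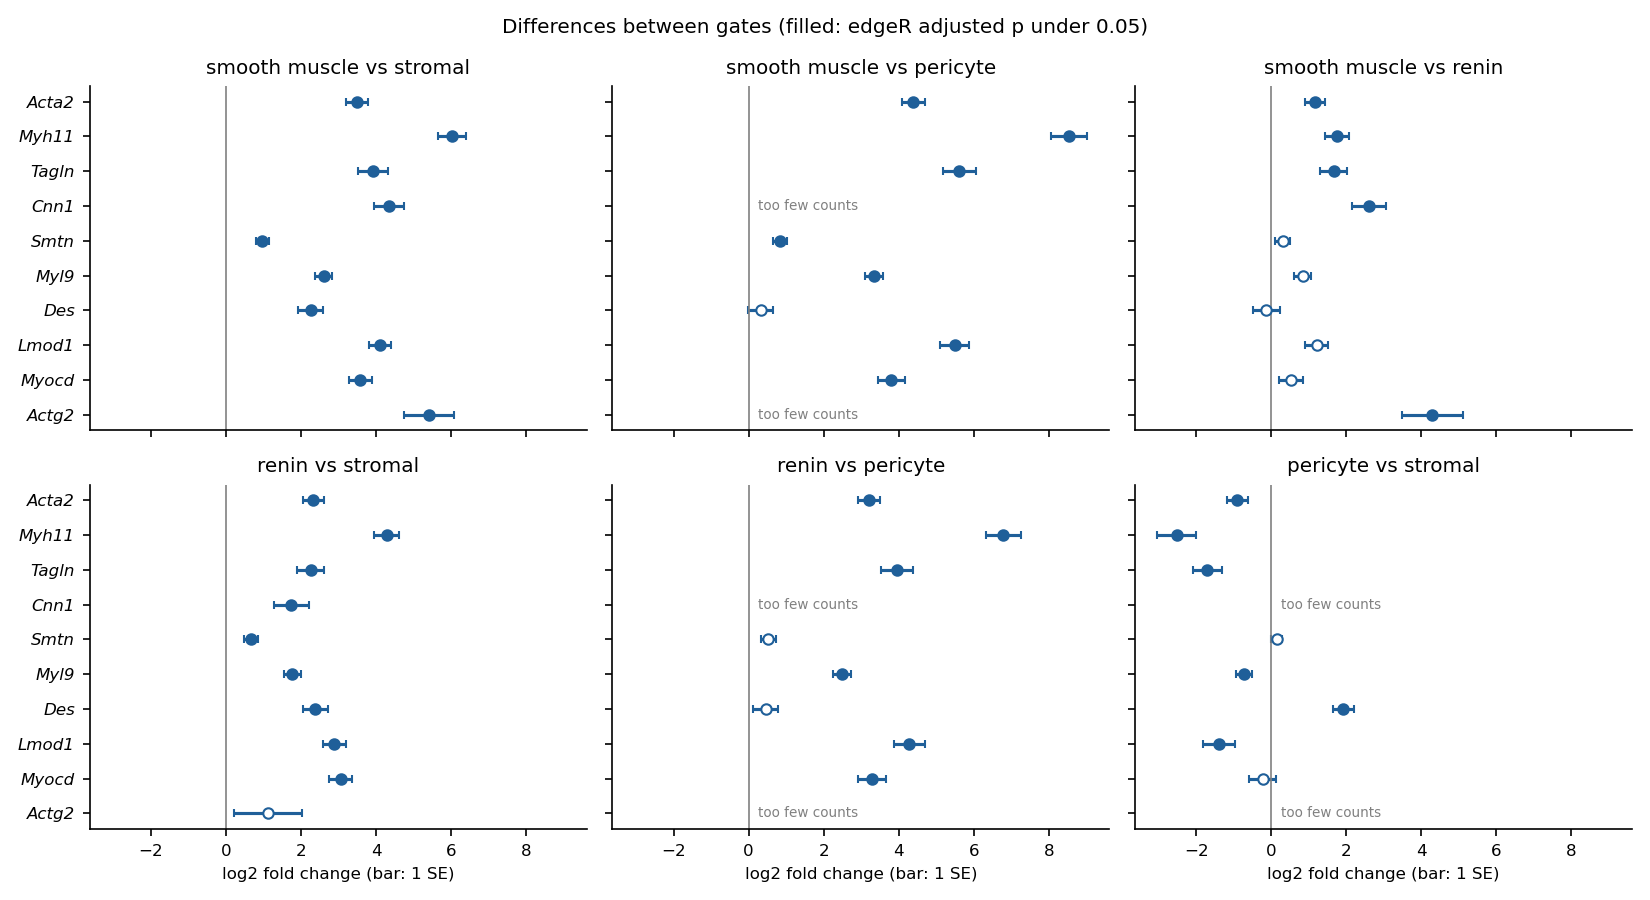
Log2 fold changes of the 10 genes in the 6 comparisons of 4 gates, with bars of 1 standard error; filled points passed the threshold of edgeR adjusted p under 0.05 and open points did not. Nearly all points lie right of 0 in the smooth muscle and renin comparisons with stromal cells and pericytes, and left of 0 for pericytes against stromal cells apart from Des and Smtn; Cnn1 and Actg2 are not drawn where pericytes had 0 to 2 counts.

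Against pericytes, 9 of the 10 genes were higher in smooth muscle cells and Des was the exception; 6.66% of all tested genes were called in either direction and 3.97% higher in smooth muscle. The median log2 ratio of the 10 was 4.94, with all tested genes at -0.05, and it was the same with the genes of 0 to 2 counts set at their bounds. Pericytes had 368 and 546 CPM of Acta2, so the log2 ratio was 4.39 (SE 0.31, edgeR adjusted p 6.45e-09). With free RNA subtracted the log2 ratio was 4.50, but the call was lost (edgeR adjusted p 0.0533). The common dispersion of that fit was 0.0313, against 0.0158 in the main fit, and its part in the lost call was not tested. Myh11 counted 8.16 and 6.75 CPM in pericytes, from 11 and 9 UMIs, 8.54 below smooth muscle on the log2 scale (SE 0.47, edgeR adjusted p 8.35e-10). The cells with intermediate smooth muscle markers, left out here, stood at 1418 and 1590 CPM of Acta2 and 25.6 and 33.7 CPM of Myh11. Endothelium, which should lack Myh11, had 1.09 and 0.480 CPM, below the pericyte values, and empty barcodes of 10 to 100 UMIs held 80.2 and 43.4 CPM. The endothelium gate left out cells with higher smooth muscle or pericyte markers, so its values are no matched background for pericytes.

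Cnn1 had 0 counts among 2681919 UMIs of pericytes in both libraries and 178 in smooth muscle cells, at least 214-fold more when 3 counts over both libraries are taken as the floor. Actg2 had 2 counts in pericytes and 205 in smooth muscle cells, a ratio of 370 (exact 95% counting interval 101 to 3074). Tagln stood at 72.7 and 114 CPM in pericytes, with a log2 ratio of 5.62 (SE 0.44, edgeR adjusted p 2.87e-08). For Lmod1 the pericyte levels were 4.45 and 8.25 CPM and the log2 ratio was 5.50 (SE 0.38, edgeR adjusted p 1.03e-08). Myocd was 23.7 and 15 CPM in pericytes (in replicate 2, 12 of 20 UMIs were in 1 cell) and 3.81 higher in smooth muscle (SE 0.36, edgeR adjusted p 8.58e-07). For each of these 5 genes the pericyte values lay far below the smooth muscle values in both libraries.

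Myl9 and Smtn were less divided. Myl9 counted 308 and 437 CPM in pericytes, 3.33 below smooth muscle on the log2 scale (SE 0.24, edgeR adjusted p 7.41e-09). Smtn counted 60.1 and 71.2 CPM, 0.83 below (SE 0.19, edgeR adjusted p 0.00813), a call that was lost with no filter on low counts (edgeR adjusted p 0.0599) and with the lower smooth muscle gate (0.609). Des stood at 142 and 117 CPM in pericytes, and the log2 ratio of 0.33 (SE 0.33) did not pass the threshold (edgeR adjusted p 0.731). With stricter gates it was -0.80 (edgeR adjusted p 0.523), and with the smooth muscle gate drawn from Acta2 and Myh11 it was -0.74 (0.251), so its direction was not settled.

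Renin cells make the enzyme renin, which starts the angiotensin cascade, and 9 of the 10 genes were higher in them than in stromal cells, where 17.1% of all tested genes were called in either direction and 7.81% higher in renin cells. Acta2 in renin cells was 3160 and 4903 CPM (4031 ± 1233, SD, n = 2), 2.32 above stromal cells on the log2 scale (SE 0.28, edgeR adjusted p 2.79e-06). Myh11 reached 361 and 1293 CPM, with a log2 ratio of 4.28 (SE 0.34, edgeR adjusted p 1.59e-08). Myocd counted 152 and 200.4 CPM and was higher by 3.05 (SE 0.31, edgeR adjusted p 6.73e-07). Des counted 209 and 139.99 CPM and was higher by 2.38 (SE 0.33, edgeR adjusted p 1.67e-05). All 8 values of these 4 genes in renin cells lay above the stromal ones.

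The log2 ratios of the other called genes against stromal cells were 2.89 for Lmod1 (56.6 and 165 CPM in renin cells), 2.25 for Tagln (966 and 1772 CPM), 1.77 for Myl9 (1410.1 and 2665 CPM), 1.74 for Cnn1 (13.1 and 63.6 CPM, from 3 and 40 UMIs) and 0.67 for Smtn (82.7 and 92.3 CPM). The lowest evidence among them was that of Cnn1 (edgeR adjusted p 0.0134) and Smtn (edgeR adjusted p 0.0125). Actg2, with 4.35 and 22.3 CPM from 1 and 14 UMIs, of which 11 were in 1 cell of replicate 2, did not pass (log2 ratio 1.11, SE 0.91, edgeR adjusted p 0.494). With free RNA subtracted 5 of the 10 genes were called, and Acta2 (log2 ratio 2.47, edgeR adjusted p 0.172), Tagln (2.31, 0.132), Cnn1 (1.74, 0.142) and Myl9 (1.75, 0.0611) no longer were, with log2 ratios close to those before subtraction.

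Set against pericytes, 7 of the 10 genes were higher in renin cells, with 7.55% of all tested genes called in either direction and 3.93% higher in renin cells. Acta2 was higher by 3.22 (SE 0.29, edgeR adjusted p 5.52e-07), Myh11 by 6.79 (SE 0.48, edgeR adjusted p 4.75e-08; 5.47 in replicate 1 alone and 7.58 in replicate 2 alone) and Tagln by 3.95 (SE 0.42, edgeR adjusted p 2.99e-06). The remaining log2 ratios that passed were 2.49 for Myl9, 4.28 for Lmod1 (3.67 and 4.33 in the single libraries) and 3.28 for Myocd (2.68 and 3.74). Cnn1 had 43 counts in renin cells and 0 in pericytes, at least 44.8-fold more per UMI. Smtn (log2 ratio 0.52, edgeR adjusted p 0.121), Des (0.46, edgeR adjusted p 0.526) and Actg2 (15 against 2 counts, a ratio of 23.4 with a counting interval of 5.45 to 211; edgeR adjusted p 0.104) did not pass. Acta2 missed the threshold after subtraction of free RNA, at a log2 ratio of 3.28 (edgeR adjusted p 0.141).

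Between smooth muscle and renin cells 5 genes were called, all higher in smooth muscle, and 1.06% of all tested genes were called in either direction, 0.494% higher in smooth muscle and 0.569% higher in renin cells. They are the 2 muscle actins, the myosin heavy chain and 2 filament-binding proteins. The 2 gates are not alike: smooth muscle cells had to be high in muscle markers, whereas renin cells were taken before them on Ren1 alone. The part of this difference in the direction of the calls was not tested. Acta2 was higher by 1.17 on the log2 scale (SE 0.27, edgeR adjusted p 0.0355), Myh11 by 1.75 (SE 0.31, edgeR adjusted p 0.00693) and Tagln by 1.66 (SE 0.37, edgeR adjusted p 0.0242). Cnn1 was higher by 2.61 (SE 0.45, edgeR adjusted p 0.00738) and Actg2 by 4.30 (SE 0.80, edgeR adjusted p 0.00984). Within replicate 1 the log2 ratios of Myh11, Cnn1 and Actg2 were 2.54, 4.10 and 6.38, and within replicate 2 they were 1.26, 1.97 and 3.32, so replicate 1 gave the wider gap for each.

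Lmod1 (1.21, SE 0.30, edgeR adjusted p 0.0574; 2.05 in replicate 1 alone and 0.88 in replicate 2 alone) and Myl9 (0.84, SE 0.22, edgeR adjusted p 0.0760) lay just outside the threshold, and Myocd (0.52, SE 0.32, edgeR adjusted p 0.673), Smtn (0.30, SE 0.21, edgeR adjusted p 0.751) and Des (-0.13, SE 0.36, edgeR adjusted p 1) well outside it. Missing the threshold does not show that these levels are alike. The 5 calls depended on the processing: 3 genes were called by DESeq2's Wald test (Cnn1, Lmod1 and Actg2), 1 without the library block (Actg2), and 0 by edgeR with free RNA subtracted (4 at an unadjusted p under 0.05) or with the smooth muscle gate lowered to 4 per 10000 (2 at an unadjusted p under 0.05). With free RNA subtracted the log2 ratios of these 5 genes were no smaller, at 1.22 for Acta2, 1.98 for Myh11, 1.87 for Tagln, 2.94 for Cnn1 and 5.35 for Actg2. Renin cells had 1275 and 2262 CPM of the 12 smooth muscle markers against 3171 and 3554 CPM in smooth muscle cells, and the libraries differed in depth, with medians of 8228 and 13698 UMIs per renin cell.

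Renin cells were split at a Ren1 share of 1% of their UMIs, which gave 13 and 20 cells below and 11 and 19 cells at or above it. The Ren1 UMIs were left out of the total so that they would not dilute the other genes. The comparison is a description without a test. Acta2 went from 2418.5 to 4317 CPM in replicate 1 and from 3507 to 6673 CPM in replicate 2. Myh11 went from 192 to 574 CPM and from 724 to 1975 CPM. Tagln (921 to 1148 and 1387 to 2285 CPM), Myl9 (1411 to 1612 and 2101 to 3419 CPM) and Myocd (134 to 191 and 159 to 257 CPM) also had the higher value in the cells with more Ren1, in both libraries. Lmod1 had the same order in both libraries (5 to 8 and 37 to 67 UMIs), as did Cnn1 and Smtn, which in replicate 1 rest on 1 to 2 and 9 to 10 UMIs, while Actg2 had it in replicate 2. Des ran the other way, from 317 to 137 CPM and from 187 to 97.9 CPM, counted on 33, 15, 59 and 29 UMIs. In replicate 1, 81 of the 222 Tagln UMIs of renin cells were in 1 cell, so the order of Tagln there may rest on that cell. Median depth was 6933 and 13509.5 UMIs below 1% and 10652 and 13698 UMIs at or above it.

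**Figure D3:**
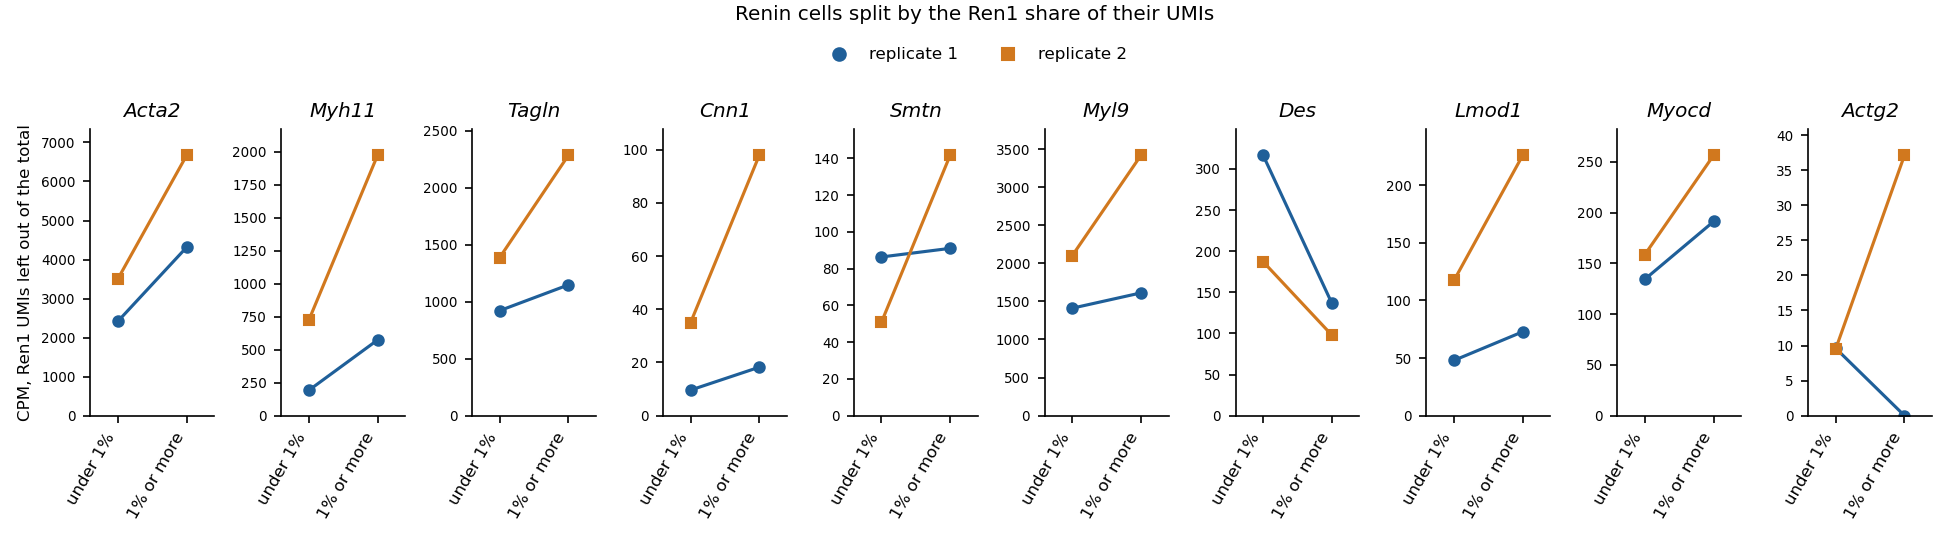
Level of each of the 10 genes (CPM with Ren1 UMIs left out of the total, linear axes that start at 0) in renin cells with under 1% and with 1% or more of their UMIs from Ren1; lines join the 2 groups of cells within a library. Acta2 goes from 2418.5 to 4317 CPM in replicate 1 and from 3507 to 6673 CPM in replicate 2, whereas Des has its lower value in the cells with more Ren1 in both libraries.

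Pericytes and stromal cells differed in the opposite direction for most of the genes. Of the 10, 6 were lower in pericytes and Des was higher, with 8.56% of all tested genes called in either direction, 4.62% higher in stromal cells and 3.93% higher in pericytes. Des was 1.93 higher on the log2 scale (SE 0.29, edgeR adjusted p 8.25e-05), in both libraries. Myh11 was lower by -2.52 (SE 0.52, edgeR adjusted p 0.00262; -1.57 in replicate 1 alone and -3.15 in replicate 2 alone) and Tagln by -1.70 (SE 0.39, edgeR adjusted p 0.00588). Cnn1 had 274 counts in stromal cells and 0 in pericytes, at least 12.04-fold more per UMI. In replicate 2 the stromal cell with the highest Myh11 level held 154 of 656 Myh11 UMIs. For Cnn1 the highest cell held 53 of 220. Lmod1 (-1.40, SE 0.42, edgeR adjusted p 0.0446), Acta2 (-0.90, SE 0.27, edgeR adjusted p 0.0434) and Myl9 (-0.73, SE 0.22, edgeR adjusted p 0.0413) passed narrowly.

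Smtn (0.14, edgeR adjusted p 0.695), Myocd (-0.23, edgeR adjusted p 0.811; 0.64 in replicate 1 alone and -0.90 in replicate 2 alone) and Actg2 (2 counts in pericytes, 165 in stromal cells, edgeR adjusted p 0.174) did not pass. With stricter gates 2 genes were called (Des, and Myocd as higher in pericytes), with free RNA subtracted 2 (Des and Myh11), and with the smooth muscle gate drawn from Acta2 and Myh11 2 of 8 tested (Des and Cnn1). Des passed under every alternative tested, with an edgeR adjusted p of at most 0.0166.

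Each muscle protein has nonmuscle relatives that build the cortex and stress fibres of other cells, and pairs were formed by gene family to see how far the muscle form took over. In smooth muscle cells Acta2 outnumbered the cytoplasmic actins Actb and Actg1 together, with ratios of UMI counts of 1.26 and 1.33. The ratio was 0.580 and 1.02 in renin cells, 0.119 and 0.230 in stromal cells and 0.0789 and 0.123 in pericytes. Myh11 outnumbered the nonmuscle heavy chains Myh9 and Myh10 by 3.25 and 3.42 to 1 in smooth muscle, whereas the ratio was 0.568 and 2.20 in renin cells, 0.0308 and 0.0585 in stromal cells and 0.016 and 0.0131 in pericytes. The muscle actin and myosin were therefore the larger pool in smooth muscle cells of both libraries, and in neither library of pericytes or stroma.

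For Tagln against Tagln2 the ratios were 15.8 and 12.4 in smooth muscle, 3.22 and 10.8 in renin cells, 0.946 and 1.97 in stromal cells and 0.206 and 0.468 in pericytes. Myl9 outnumbered Myl12a and Myl12b by 5.48 and 6.53 to 1 in smooth muscle and by 2.63 and 7.28 in renin cells, but reached only 0.576 and 0.738 in pericytes. Cnn1 stayed the smaller pool even in smooth muscle, at 0.317 and 0.318 of Cnn2 and Cnn3. Des was far below vimentin (Vim) in all 4 gates, with the lowest ratios in stromal cells (0.0515 and 0.0459) and the highest in renin cells (0.185 and 0.159).

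**Figure D4:**
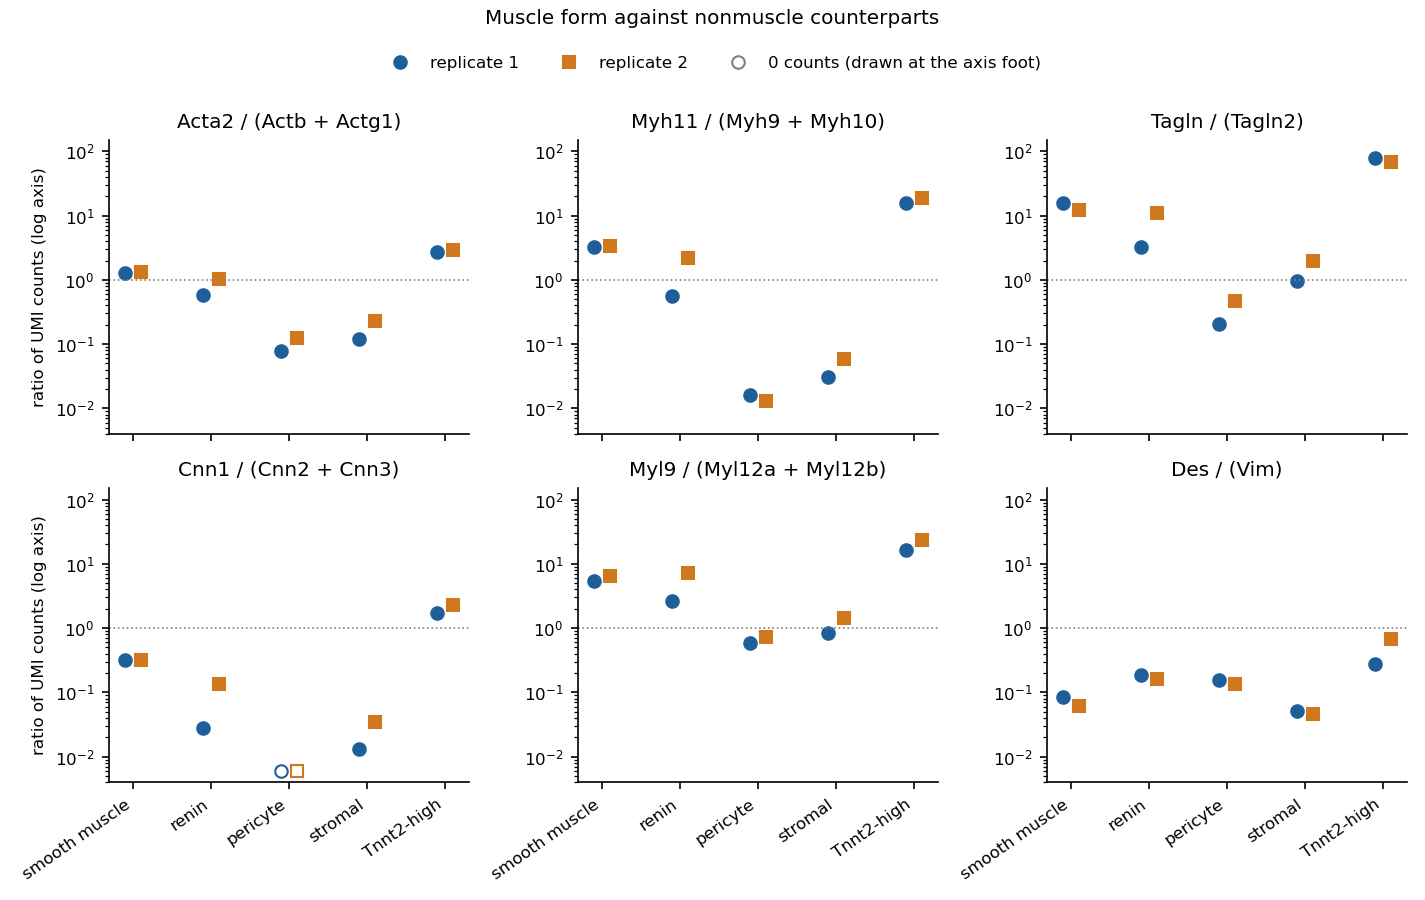
Ratio of the UMI counts of 6 muscle genes to those of their nonmuscle relatives (log axis) in 5 gates; circles are replicate 1, squares replicate 2, the dotted line marks equal counts and open symbols 0 counts. Acta2, Myh11, Tagln and Myl9 lie above equality in smooth muscle cells of both libraries, and all of the ratios but that of Des are lowest in pericytes.

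The 14 nonmuscle genes were also compared as a list. Against stromal cells 3 of the 14 were higher and 2 lower in smooth muscle, with a median log2 ratio of 0.21, and against pericytes 4 were higher and 1 lower (median 0.31). Over all tested genes, 13.8% were called in either direction against stromal cells (median -0.25) and 6.66% against pericytes (median -0.05). Vim was the only nonmuscle gene called between smooth muscle and renin cells, at 1869 and 2404 CPM against 1132 and 881 CPM (log2 ratio 1.1, SE 0.26, edgeR adjusted p 0.0415). Between smooth muscle and renin cells 1.06% of all tested genes were called. Renin cells had 1 higher and 2 lower against stromal cells, beside 17.1% of all tested genes called in either direction. Pericytes had 1 lower against stromal cells, beside 8.56%. The counts against stromal cells in renin cells and pericytes do not set the list apart from all tested genes.

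The rest of the contractile pathway, 31 genes for tropomyosins, actin crosslinkers, myosin phosphatase, calcium channels and release and regulators, was compared in the same way. In smooth muscle cells 26 of the 31 were higher and 1 lower than in stromal cells, with a median log2 ratio of 1.5. Over all tested genes, 6.68% were higher in smooth muscle and 7.15% higher in stromal cells. Tpm2, a tropomyosin that lies along the actin filament, counted 2730 and 3087 CPM against 329 and 436 CPM (log2 ratio 2.92, SE 0.25, edgeR adjusted p 1.89e-08). Prkg1, the cGMP-dependent kinase of nitric oxide relaxation, counted 3374 and 3626 CPM against 271 and 381 CPM (3.40, SE 0.26, edgeR adjusted p 4.52e-09). Against pericytes 22 were higher and 2 lower, beside 3.97% of all tested genes higher in smooth muscle and 2.7% higher in pericytes. Pdlim3, a Z-line associated protein, stood at 71.2 and 121 CPM against 5.93 and 1.5 CPM in pericytes (4.80, SE 0.59, edgeR adjusted p 1.18e-05). The potassium channel gene Kcnma1, at 71.2 and 88.6 CPM in smooth muscle, and the calcium release channel gene Ryr2, at 35.6 and 17.3 CPM, had 0 counts in pericytes.

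In renin cells 21 of the 31 genes were higher and 1 lower than in stromal cells, and 18 higher and 1 lower than in pericytes. Over all tested genes, 7.81% were higher in renin cells than in stromal cells and 3.93% higher than in pericytes. Cacna1c, the pore of the L-type calcium channel, counted 331 and 482 CPM in renin cells against 102 and 120.0 CPM in pericytes (1.99, SE 0.25, edgeR adjusted p 1.97e-05). Of the 31, 4 were called between smooth muscle and renin cells, beside 1.06% of all tested genes. Csrp1 (1.02) and Ppp1r12b, a myosin phosphatase subunit (1.03), were higher in smooth muscle, and Agtr1a, the angiotensin receptor gene, was lower at 103 and 75.7 CPM against 335 and 200.4 CPM (-1.54, SE 0.28, edgeR adjusted p 0.00624). In pericytes 6 genes were higher and 4 lower than in stromal cells, Agtr1a among the higher (271 and 233 CPM against 41.4 and 34.5 CPM, 2.64) and Pdlim3 (-3.21) among the lower. Over all tested genes, 3.93% were higher in pericytes and 4.62% higher in stromal cells.

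Sums per gate hide how many cells carry a gene, so each cell was thinned to 3000 UMIs and the cells with at least 1 UMI were counted. Acta2 was found in 25 of 25 smooth muscle cells of replicate 1 and in 90% of those of replicate 2 (Clopper-Pearson 95% interval 73.5 to 97.9), against 62.5% and 64.1% of renin cells, 40.4% and 49.4% of pericytes and 45.4% and 72.6% of stromal cells. In endothelium the share was 1.99% and 1.72% at median depths of 10942 and 13325 UMIs. The endothelium gate left out cells with higher smooth muscle, pericyte, stromal or Ren1 markers, so these shares may understate the background. Unthinned shares of Acta2 were 66.7% and 69.2% in renin cells and 65.5% and 90% in stromal cells. Acta2 was thus detected in nearly every smooth muscle cell and also in a large share of the other 3 gates.

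Myh11 was found in 68.0% and 73.3% of smooth muscle cells, 25.0% and 46.2% of renin cells, 3.85% and 2.47% of pericytes and 4.11% and 6.21% of stromal cells. Cnn1 was found in 24.0% and 30% of smooth muscle cells and in 0 of 104 and 0 of 81 pericytes, which allows up to 2.88% and 3.70% of cells with a UMI at this depth and sets no limit on the share of expressing cells. Myocd was found in 32.0% and 46.7% of smooth muscle cells and 16.7% and 33.3% of renin cells, shares whose intervals overlap. Des had a UMI in 32.0% and 23.3% of smooth muscle cells, 58.3% and 23.1% of renin cells and 30.8% and 27.2% of pericytes, against 8.86% and 8.76% of stromal cells. For Smtn the share was 16.6% and 21.6% in endothelium, 15% and 15.3% in stromal cells and 12% and 40% in smooth muscle cells, so smooth muscle did not stand apart from endothelium in replicate 1.

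Detection within single cells was counted after thinning. All 6 and 18 renin cells with a Myh11 UMI had an Acta2 UMI, which 15 of 24 and 25 of 39 renin cells had overall. Every smooth muscle cell with Cnn1 had Myh11 (6 and 9 cells). At least 5 of the 10 genes were seen in 60% and 70% of smooth muscle cells, 12.5% and 48.7% of renin cells, 1.92% and 2.47% of pericytes and 2.70% and 6.69% of stromal cells. Replicate 1 had the lower share among renin cells, and its renin cells were also the shallower before thinning. Des was often seen without Acta2 in pericytes: 21 of 32 pericytes with Des in replicate 1 and 14 of 22 in replicate 2 had no Acta2 UMI.

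The 10% of stromal cells with the highest Acta2 level held 50.3% and 36.4% of its UMIs, much as in pericytes (48.8% and 38.6%), renin cells (44.1% and 39.5%) and smooth muscle cells (43.4% and 36.7%). Ranked by the gene itself, the highest 10% of stromal cells held 100% and 92.5% of Myh11 UMIs and 82.1% and 59.0% of Tagln UMIs. For Cnn1 it was 100% in each library. When stromal cells were split by detection of Foxd1, the progenitor gene, and Penk, a gene of medullary stroma, the cells with Penk and no Foxd1 had 769 and 1629 CPM of Acta2, against 372 and 812 CPM with Foxd1 alone and 249 and 710 CPM with both. Tagln showed the same order, at 369 and 681 CPM, 52.5 and 205 CPM and 44.9 and 114 CPM. Myh11 was 51.2 and 92.1 CPM in the cells with Penk and no Foxd1 and at most 12.4 CPM in both groups with Foxd1. Myocd had another order, with 19.3 and 32.5 CPM in cells with both genes, 18.8 and 29.9 CPM with Penk and no Foxd1, and 8.62 and 5.50 CPM with Foxd1 alone. Smtn ranged from 45.5 to 65.4 CPM over all 4 groups.

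The stromal cells with neither gene, 157 and 76 cells, did not give 1 level. Their Acta2 was 444 CPM in replicate 1 and 1997 CPM in replicate 2, and Myh11 was 13.4 and 219 CPM. They held 129 of the 150 stromal Actg2 UMIs of replicate 2, of which 55 were in 1 cell. These splits use detection in single cells, which depends on depth, and carry no test. Median depth in the 4 groups ran from 10159 to 12573 UMIs in replicate 1 and from 14532.5 to 17840.5 UMIs in replicate 2.

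**Figure D5:**
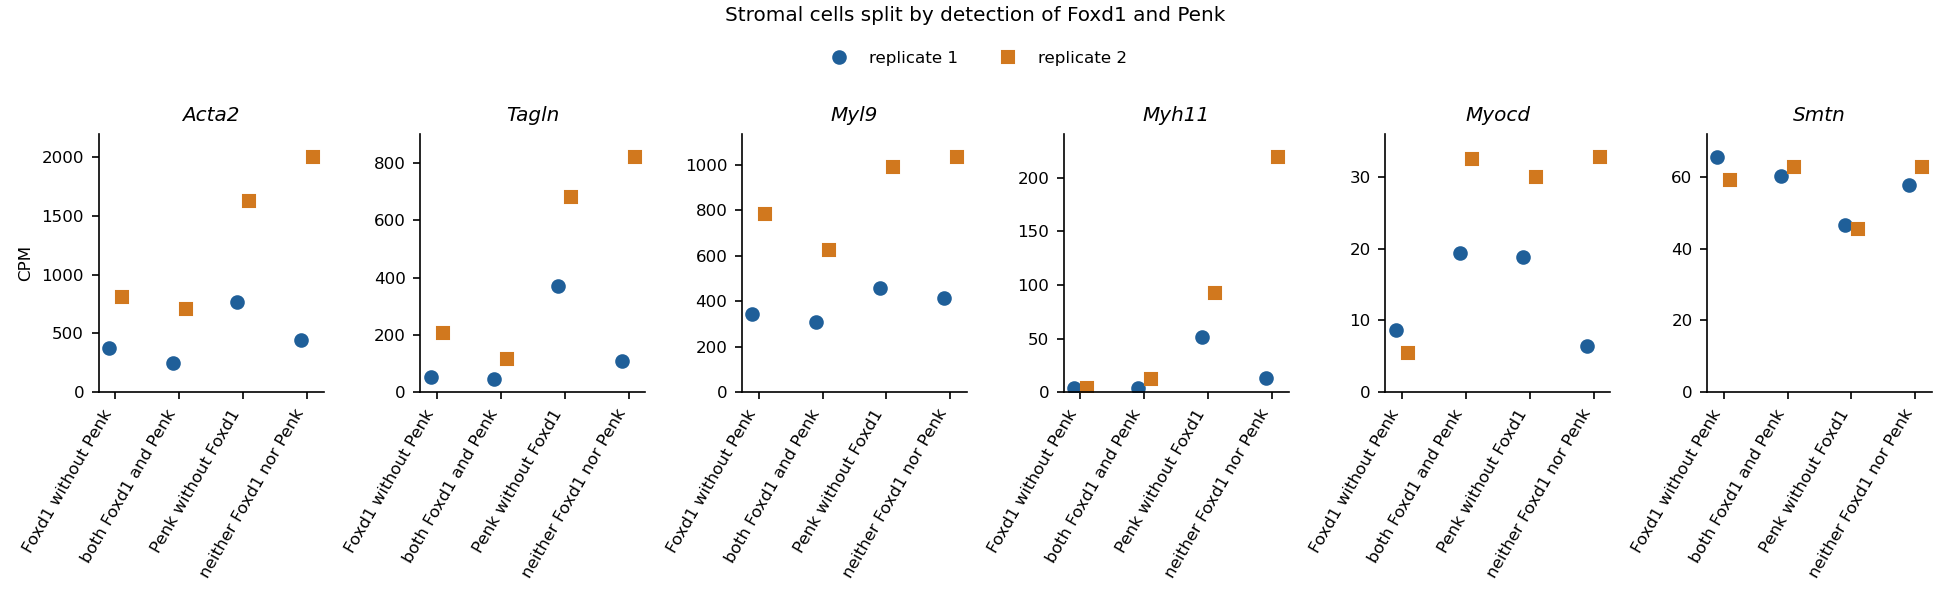
Level of 6 genes (CPM, linear axes that start at 0) in stromal cells split by detection of Foxd1 and Penk; circles are replicate 1 and squares replicate 2. Acta2 and Tagln are higher in cells with Penk and no Foxd1 than in the 2 groups with Foxd1 in both libraries, Smtn is nearly level, and cells with neither gene differ widely between the libraries.

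Another set of cells, recognised by the troponin gene Tnnt2, had higher levels of 4 of the 10 genes than the smooth muscle gate. They numbered 52 in replicate 1 and 6 in replicate 2 and were kept out of the smooth muscle gate. Their Tbx18, a gene of the mesenchyme around the ureter, stood at 226 and 269 CPM against 14.2 and 0 CPM in smooth muscle cells. Notch3 was 17.5 and 32.6 CPM against 402 and 482 CPM. The 8 pericyte markers together stood at 169 and 139 CPM, against 2919 and 3005 CPM in smooth muscle cells and 126 and 177 CPM in stromal cells. Of the 8, Vtn, Higd1b and Colec11 had 0 counts, Vtn also in the pericyte gate, and Abcc9 was at 99.1 and 32.6 CPM. Of the striated muscle markers, Ckm stood at 140.0 and 114 CPM, Myh3 at 102 and 0 CPM, Myl7 was at 1.46 and 0 CPM and Myog at 5.83 and 0 CPM. No cell type name is given to them here. The highest doublet scores included 3 of the 52 and 4 of the 6 cells.

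In a fit that added this gate after the data had been seen, all 10 genes were higher in the Tnnt2-high cells than in stromal cells, with 13.1% of 14558 tested genes called in either direction and 6.7% higher in the Tnnt2-high cells and 6.42% higher in stromal cells. Against smooth muscle cells 4 of the 10 were higher, beside 9.12% of all tested genes in either direction and 4.55% higher in the Tnnt2-high cells and 4.57% higher in smooth muscle. Actg2 stood at 1889 and 3889 CPM, 3.35 above smooth muscle on the log2 scale (SE 0.44, edgeR adjusted p 4.91e-05; 2.38 in replicate 1 alone and 4.13 in replicate 2 alone). Cnn1 stood at 876 and 1883 CPM, higher by 2.63 (SE 0.27, edgeR adjusted p 6.42e-06; 1.97 and 2.92). Des counted 375 and 644 CPM (401 CPM in replicate 2 without 1 cell that held 40 of 79 UMIs), higher by 1.76 (SE 0.36, edgeR adjusted p 0.00222), and Myh11 5973 and 4492 CPM, higher by 1.28 (SE 0.37, edgeR adjusted p 0.0323; 1.51 and 0.54). Acta2, at 9415 and 13925 CPM, did not pass (0.51, SE 0.28, edgeR adjusted p 0.316), nor did Tagln, Smtn, Myl9, Lmod1 and Myocd.

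Of the 14 nonmuscle relatives, 6 were lower in these cells than in smooth muscle, 0 were higher and the other 8 did not pass. Over all tested genes, 4.57% were lower in these cells and 4.55% higher. The ratio of Myh11 to Myh9 and Myh10 was 15.9 and 19.0. After thinning, at least 5 of the 10 genes were found in 51 of 52 and 6 of 6 cells, and Actg2, which had a UMI in 20% of smooth muscle cells of each library, was found in 92.3% and 100% of the Tnnt2-high cells. Of the 31 pathway genes 8 were higher and 8 lower than in smooth muscle, with Gata6 (114 and 89.7 CPM against 10.7 and 15.1 CPM, 3.26) among the higher and Ednra, the endothelin receptor gene (51.0 and 65.2 CPM against 292 and 335 CPM, -2.30), among those that were lower.

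Outside the mesenchyme most of the 10 genes were low, and 4 are described here. The gates used there left out cells with higher smooth muscle, pericyte, stromal or Ren1 markers, which may lower these values. Smtn counted 79.4 and 79.5 CPM in endothelium, between the levels of pericytes and of renin cells, and 39.7 and 36.3 CPM in proximal tubule. Des counted 39.2 and 34.7 CPM in nephron progenitors, slightly above stromal cells. Tagln counted 63.9 and 30.9 CPM in podocytes, from 102 and 48 UMIs, where Acta2 was only 5.64 and 7.74 CPM. Myl9 counted 25.2 and 50.01 CPM in nephron progenitors and 25.7 and 42.6 CPM in podocytes. Acta2 was between 2.23 and 23.0 CPM in the nephron, endothelial and blood gates of both libraries. Cnn1 was at 0.307 CPM or below there.

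Across the 24 sums of 12 gates, the log2 level of each gene was set beside the mean of the other 9. Pearson's r, which describes sums of the same 2 libraries and is no test, was highest for Myocd at 0.987 and lowest for Smtn at 0.632, with Des at 0.827 and Actg2 at 0.844. Of 12009 other genes the 6 with the pattern most like the mean of the 10 were Stbd1 (0.966), Jph2 (0.966), Kcnk3 (0.964), Ntrk2 (0.963), Adcy5 (0.963) and Pakap, identifier ENSMUSG00000090053 (0.962). Adcy5, an adenylyl cyclase gene, had 107 and 102 CPM in smooth muscle cells and 5.19 and 2.25 CPM in pericytes.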

How the data were processed

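The deposited matrices hold raw UMI counts per gene and barcode for all barcodes. Per the submitters' processing notes they were made with Cell Ranger 6.0.1 on mm10, while the matrix header names Cell Ranger 4, and both are given here as found. The 10 genes and the other lists were chosen with earlier results of these data known. Cells with 3000 or more UMIs, 500 or more genes and no more than 20% of UMIs from mitochondria were gated on markers per 10000 UMIs: renin cells on Ren1 (at least 5), Tnnt2-high cells on Tnnt2 (at least 2), smooth muscle on 10 of 12 fixed markers (at least 8, from at least 3 markers), pericytes on 8 (at least 15, from at least 3) and stromal cells on 12 (at least 20, with low values of the others). Mylk and Synpo2 were not scored because stromal cells were high in them. Cells high in 10 other lineage lists were taken out first. Levels of these gates were set from the distributions of the markers. The gates of the other lineages left out cells with higher smooth muscle, pericyte, stromal or Ren1 markers. The part of this that concerns mural cells was added after values of the 10 genes had been seen.

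Counts were summed per library and gate and tested with edgeR 4.0.16 in R 4.3.3 (quasi-likelihood F test, TMM scaling, filterByExpr, library as block, Benjamini-Hochberg adjustment over 17213 genes that served in no gate). Every gate is drawn from the same 2 libraries, so the libraries pair the sums. The 2 libraries held 200331687 and 173166168 UMIs over all barcodes. Intervals and floors (3 counts) cover counting error only. Doublets were scored with Scrublet (scanpy 1.11.5) and kept, with removal as an alternative. The fit was tested on simulated data. All 10 genes were named in every comparison, with at most 4 genes of the other lists by size of fold change and the 6 genes most like the mean of the 10 on log2(CPM + 5). Alternatives were DESeq2 1.42.0 (size factors, Wald test), no filter, no library block, 4 gates only, other depth, mitochondrial and gate limits, doublet removal, free RNA subtraction and each library alone.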

Additional observations from a re-analysis of the deposited data

How the results depend on the processing

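Over the 6 comparisons, 888 values under alternative settings with a test kept direction and side of the threshold in 796 cases, missed the threshold in 59, newly passed it in 21 and changed sign in 12. The number of the 10 genes called ranged from 8 to 10 for smooth muscle against stromal cells, 7 to 9 against pericytes, 0 to 7 against renin cells, 6 to 8 for renin cells against pericytes, 5 to 9 for renin against stromal cells and 2 to 8 for pericytes against stromal cells. The lowest counts of smooth muscle against stromal cells (8) and pericytes (7) came with the gate from Acta2 and Myh11. Acta2 and Myh11 were not tested there, and none of the other 8 genes lost a call in these 2 comparisons. For smooth muscle against renin cells (5 genes) the count was 3 with DESeq2's Wald test, 1 with no library block, and 0 with free RNA subtracted or the lower smooth muscle gate. For renin against stromal cells (9) it was 5 with free RNA subtracted. For pericytes against stromal cells (7) it was 4 with DESeq2 size factors, 3 with DESeq2's Wald test, 4 with no library block, 4 at no more than 10% mitochondrial UMIs, and 2 with stricter gates, with free RNA subtracted or with the gate from Acta2 and Myh11. The pairing by library therefore bears on both of these comparisons.

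The sign changed for Des in smooth muscle against pericytes (-0.80 with stricter gates, -0.74 with the Acta2 and Myh11 gate) and against renin cells (0.089 with the lower gate, 0.54 with Tnnt2-high cells kept), and for Smtn (-0.27) and Myocd (-0.40) against renin cells with the lower gate. It also changed for Actg2 in renin against stromal cells with Tnnt2-high cells kept (-0.066) and for Des in renin cells against pericytes with stricter gates (-0.20). In pericytes against stromal cells it changed for Smtn (-0.56) and Myocd (1.58) with stricter gates and for Myocd (0.71) and Actg2 (1.15) with the Acta2 and Myh11 gate. The cause was not tested. The lower gate, the kept Tnnt2-high cells, a pericyte gate at 10 per 10000 and library sizes without Ren1 were chosen after seeing the data. With 1 library left out no test was possible, and 47 of 111 values moved by more than 1 SE or changed sign without a call. Depth limits Cnn1 and Actg2 in pericytes, where they had 0 and 2 counts.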
